A study of Mus musculus with 20 samples.

Results

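The respiratory chain genes were followed in amygdala RNA of 20 male mice at about 7 months of age, housed singly from an age of 5 months, with 1 mouse on each array. The amygdala is the brain region that evaluates threat. WT mice carried intact Slc6a4, which encodes the serotonin transporter 5-HTT, and KO mice lacked a functional gene in all tissues. Mice of both genotypes came from heterozygous parents on a C57BL/6J background. Stressed mice (stress) spent 1 min in water, labelled as 22 °C, and control mice (con) the same time in the home cage, which gave the control and stressed groups of each genotype (WT con and KO con, WT stress and KO stress) with 5 arrays each. All mice were anaesthetized with isoflurane before the amygdala was taken. By the rule used, a member is a gene whose symbol begins with Nduf followed by a, b, c, s or v, with Uqcr, with Cox and a digit from 4 to 8, or with Atp5, or is one of Sdha to Sdhd. The array table held 114 features with 1 such symbol for 89 genes, of 19933 different symbols in all, and the feature with the highest mean stood for a gene. A feature is the set of probes that the array assigns to a transcript. The members were 34 complex I subunits, 4 of complex II, 8 of complex III, 17 of complex IV, 17 of complex V, 7 assembly factors of complex I named Ndufaf, and the pair Ndufa4 and Ndufa4l2, which are named as complex I genes though the Ndufa4 protein sits in complex IV. A further 6 features carried several symbols, at least 1 of which fit the rule, such as Ndufs5 with its pseudogene, and were not used.

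The respiratory chain lies in the inner mitochondrial membrane. Complex I takes electrons from NADH and complex II from succinate, both pass them through ubiquinone to complex III, cytochrome c carries them on to complex IV, and the proton gradient built on the way drives complex V, the ATP synthase. Nearly all subunits are encoded in the nucleus, a few core subunits of complexes I, III, IV and V in mitochondrial DNA, and neurons draw most of their ATP from this chain. Nuclear respiratory factors such as NRF1 and GABP, and the factor YY1, are known to bind promoters of many chain genes.

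Promoters of the members are shown as a description of what these genes share in sequence. Any link to how they moved from array to array, described further down, was not tested. RefSeq windows of 300 bases (250 before and 50 after a transcript start, GRCm38.p6) were at hand for 73 of 89 members. The NRF1 core word, GCGCATGC, stood on either strand in the windows of 12 members (16.4%), against 3.05% of the 27025 genes in the table. The YY1 word, AAGATGGC, stood in 10 (13.7%, against 3.19% of all genes), and CCGGAAGT, an ETS family word bound by GABP, in 5 (6.85%, against 4.31%). In all 26 of the 73 (35.6%) held at least 1 of these words, against 9.91% of all genes. These are shares of letters in fixed windows and not bound sites. Capitals mark the word in the following stretches, written 5′ to 3′ along the gene, first for the NRF1 core and then for YY1.
Uqcrc1 (chr9:108936667-108936696, plus strand): gactccgctctGCGCATGCgcagcgcggct
Ndufa11 (chr17:56717691-56717720, plus strand): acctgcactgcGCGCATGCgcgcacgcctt
Cox6a1 (chr5:115349102-115349131, minus strand): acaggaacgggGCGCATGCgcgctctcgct
Sdhb (chr4:140961206-140961235, plus strand): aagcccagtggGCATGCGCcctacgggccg
Ndufs7 (chr10:80249462-80249491, plus strand): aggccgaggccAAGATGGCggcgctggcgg
Atp5j (chr16:84835046-84835075, minus strand): aaagtgtaggaAAGATGGCggagtcttagc
Ndufa9 (chr6:126849097-126849126, minus strand): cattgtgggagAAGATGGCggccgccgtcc
In Sdhb the word is read on the opposite strand. The NRF1 word is nearly its own reverse complement, so that both strands match within 2 bases of each other in several windows, and its 20 matches came from 12 genes. Of the YY1 matches 9 of 10 lay on the strand of the gene and 8 lay after the start, in the transcribed part, at a median distance of 27.5 bases. Of the NRF1 matches 15 of 20 lay before the start. Uqcrc1 was an exception, with its word 31 bases after the start.

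Values are log2 signals as the authors normalized them. The members had means between 5.33 and 11.78 over the 20 arrays, 11 of them under 7. Differences are of group mean log2 values from limma, fitted on all 28767 features so that the 4 groups share 1 estimate of the spread, and adjusted p-values are by the Benjamini-Hochberg method over all of them. The study called a gene at a fold above 1.5 and a p below 0.05 without adjustment, and limma's p was used to count by this criterion. Slc6a4 itself read 6.62 ± 0.75 (SD, n = 5) and 6.39 ± 0.10 in the WT groups (con, then stress) and 8.16 ± 0.03 and 8.28 ± 0.11 in the KO groups, that is higher in the arrays labelled KO, and where its probes lie relative to the targeted part was not determined. The first replicates of WT con and of WT stress resembled the remaining arrays least, at median correlations of 0.978 and 0.961, and are called the arrays that stood apart, and the counts by complex are also given without both. Markers of neurons were present, with Camk2a of excitatory neurons between 11.11 and 12.13 and Gad1 of GABAergic neurons between 10.41 and 11.44. Prkcd, from the list for striatal and central amygdala neurons, lay between 7.58 and 10.72. These markers were not chosen as specific to the amygdala, and the region dissected was not tested. Marker scores of neighbouring tissue differed widely among arrays of 1 group. The score of thalamic neurons (8 of 8 markers measured) ran from -0.55 to 1.23 in WT con and -0.75 to 0.97 in KO con, and from -1.29 to 1.10 in WT stress and -0.38 to 0.80 in KO stress. In such bulk RNA, fewer cells of a type and less RNA per cell cannot be told apart.

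No member of the respiratory chain passed the adjusted threshold in any comparison, and none met the study's criterion. Over all arrays most members had lower values after stress in both genotypes and higher values in KO than in WT mice. The median differences were less than 0.1 on the log2 scale. Without the arrays that stood apart, the direction in WT stress vs. con turned and that in stress KO vs. WT was lost. After quantile normalization, that in con KO vs. WT was close to even, as given below. In WT stress vs. con, 69 of 89 members had lower values (median difference -0.06), while 62.8% of all features had higher ones (median 0.03). In KO stress vs. con it was 74 of 89 (median -0.08), with 48.5% of all features higher (median -0.00). Most genes of the related lists given further down were lower there too. It was 14 of 16 for the citric acid cycle, 12 of 13 for glycolysis and 16 of 17 for mitochondrial carriers and membrane proteins. For electron carriers and assembly factors outside the rule it was 28 of 37. In con KO vs. WT 64 of 89 members were higher (median 0.06, with 50.02% of all features higher), and in stress KO vs. WT 59 of 89 (median 0.03, with 41.2% of all features higher). Once centred on their means, features with a mean of at least 8 averaged -0.04 in WT con and 0.05 in KO con. They averaged -0.03 in WT stress and 0.02 in KO stress. Of 16 citric acid cycle genes 15 were higher in KO con and 13 in KO stress. Of 13 glycolytic genes it was 10 and 8. Whether the members differed from these sets was not tested.
The WT direction rested on the arrays that stood apart, and 58 of 89 were higher in WT stress with array weights. Without WT stress replicate 1, 43 of 89 members were higher in WT stress (median -0.01), without WT con replicate 1 it was 39, and with neither array in the fit, a choice made once the data had been seen, 62 of 89 were higher (median 0.04). In KO stress vs. con, 10 to 26 of 89 members were higher when each array was left out in turn. In stress KO vs. WT 42 of 89 were higher without WT stress replicate 1 (median -0.00, with 43.6% of all features). Averaged over conditions 44 of 89 were higher in KO after quantile normalization, with 51.2% of all features. In con KO vs. WT it was 53 to 75 of 89 with each array left out, and 47 of 89 after quantile normalization of the arrays (51.0% of all features).
By complex, with neither array in the fit, values were higher in WT stress than WT con for 25 of 34 subunits of complex I (median 0.04), 3 of 4 of complex II, 6 of 8 of complex III, 11 of 17 of complex IV and 11 of 17 of complex V (median 0.03), with 51.3% of all features higher. In con KO vs. WT they were then higher for 31 of 34, 4 of 4, 6 of 8, 12 of 17 and 15 of 17, with 45.1% of all features. Counts by complex after quantile normalization were not taken. In stress KO vs. WT they were higher for 17 of 34, 2 of 4, 5 of 8, 7 of 17 and 7 of 17, with 43.6% of all features. The counts of KO stress vs. con use neither array.
The intervals bound what these arrays allow. The 95% interval of limma lay within a fold of 1.5 either way (0.58 on the log2 scale) for 87 of 89 members in WT stress vs. con, for 88 in KO stress vs. con, for 86 in con KO vs. WT and for 86 in stress KO vs. WT. Intervals that reached beyond it were those of Cox5a and Cox8b in WT mice, Atp5mpl in KO mice, Atp5d, Ndufa1 and Uqcrc1 between the controls, and Atp5d, Atp5mpl and Ndufa1 between the stressed groups. For the interaction of genotype and stress the interval was within that fold for 74 of 89.

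**Figure D1:**
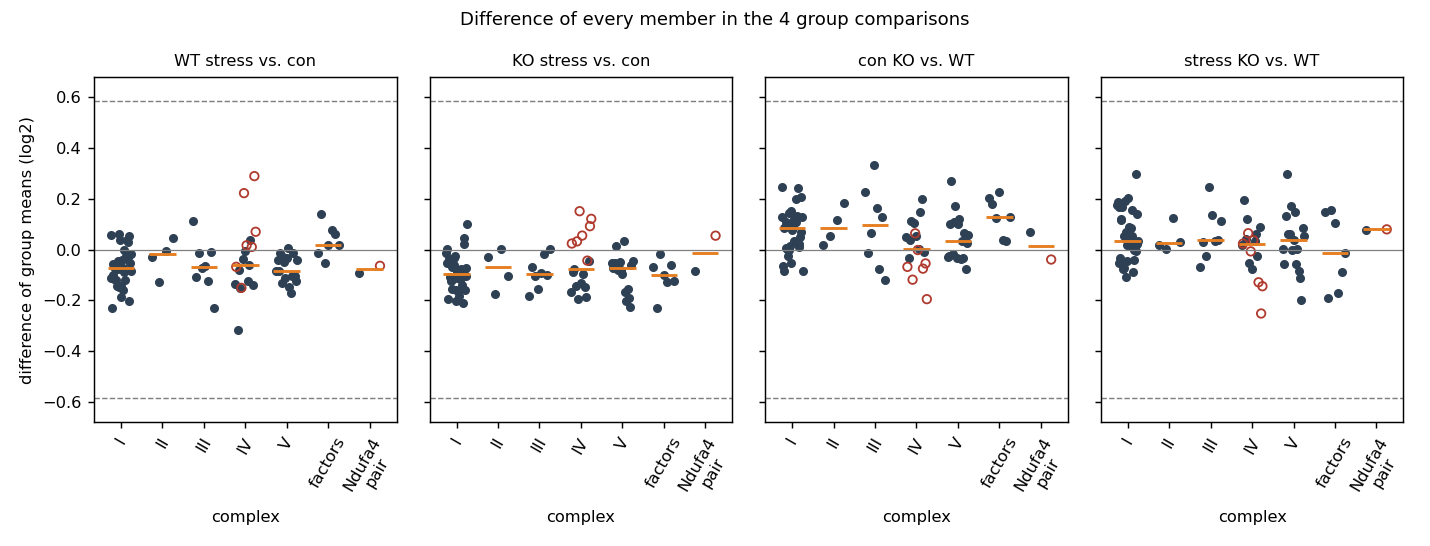
Difference of group means (log2, y axis) of each of the 89 members, by complex (x axis), in the 4 group comparisons. Points are genes, open circles tissue-restricted isoforms, orange bars the median of a complex, and dashed lines a fold of 1.5. All points lie inside the dashed lines, between -0.32 and 0.33.

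Complex I, the largest complex, had lower values after stress for 28 of 34 subunits in WT mice (median -0.07, a direction that turned without both arrays) and for 30 of 34 in KO mice (median -0.10). Between the controls 28 of 34 were higher in KO (median 0.09). Between the stressed groups 23 of 34 were higher in KO (median 0.03), or 17 of 34 without WT stress replicate 1. Its subunit with the smallest p was Ndufs7, which carries the iron-sulfur cluster next to the ubiquinone site. In WT stress its 5 arrays read 8.72, 9.37, 9.16, 9.34 and 9.23, and in KO stress 9.33, 9.59, 9.53, 9.40 and 9.47. The KO arrays were the higher ones, though the lowest of them overlapped the upper WT arrays. The difference in stress KO vs. WT was 0.30 (SE 0.10, 95% interval 0.08 to 0.52, limma unadjusted p = 0.00997, adjusted p = 0.53, exact permutation p = 0.0238). WT stress replicate 1 had the lowest value, and without it the difference was 0.19. Between the controls, where WT con read 9.49, 9.33, 9.31, 9.42 and 9.28 and KO con 9.13, 9.44, 9.55, 9.45 and 9.505, it was 0.05 (SE 0.10).
Ndufa11, an accessory subunit in the membrane arm, was the member with an unadjusted p under 0.05 in WT stress vs. con, where 3.54% of all features had one and 0.0% an adjusted p under 0.05. With the replicate number as a block, which pairs the WT arrays, 4 of 89 members had such a p in the fit of all groups (4.45% of all features) and 0 in the fit of the WT groups alone (3.59%). The Ndufa11 arrays read 9.05, 8.79, 8.96, 8.51 and 8.496 in WT con, and 8.42, 8.55, 8.61, 8.61 and 8.46 in WT stress. WT con split into 3 higher arrays and 2 that lay within the range of WT stress. The difference was -0.23 (SE 0.10, limma unadjusted p = 0.0354, adjusted p = 1.00, exact permutation p = 0.119), and it was -0.13 without both arrays that stood apart. In KO mice the same gene differed by 0.00 (SE 0.10). Its other feature correlated with this one at 0.63 over the arrays, and with the mean of both features the WT difference was -0.19.
Ndufa12, an accessory subunit of the arm that protrudes into the matrix, was the corresponding member in KO stress vs. con, against 1.13% of all features and 0.0% after adjustment. It read 8.35, 8.51, 8.70, 8.46 and 8.30 in KO con, and 8.22, 8.23, 8.48, 8.19 and 8.22 in KO stress. In KO stress 4 arrays lay within 0.04 of each other, below all KO con arrays, and replicate 3 lay among the KO con arrays. The difference was -0.20 (SE 0.09, limma unadjusted p = 0.037, adjusted p = 1.00, exact permutation p = 0.0635). In WT mice it was -0.06 (SE 0.09).
The catalytic subunits of the electron input module had small differences. Ndufv1, which binds NADH, differed by -0.05 and -0.10 after stress in WT and KO mice, and Ndufs1, the large iron-sulfur subunit, by -0.03 and -0.11. Ndufs8, an iron-sulfur subunit near Ndufs7, was 0.21 higher in KO con than in WT con (limma unadjusted p = 0.118) and differed by -0.00 between the stressed groups. Ndufab1, the mitochondrial acyl carrier protein, read 8.31 in WT stress replicate 1 and 8.66 to 9.10 in all other arrays.

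The Ndufaf assembly factors help build complex I and do not stay in it. In WT stress vs. con 5 of 7 were higher (median 0.02), close to all features (62.8% higher, median 0.03), and it was also 5 of 7 without both arrays (median 0.01). In KO stress vs. con 0 of 7 were higher (median -0.10), and in con KO vs. WT 7 of 7 (median 0.13), or 6 of 7 without both arrays. Ndufaf2, a relative of Ndufa12 that takes its place during assembly, was the member with an unadjusted p under 0.05 for the interaction, against 2.52% of all features and 0.0% after adjustment. Its arrays read 7.23, 7.21, 6.88, 6.88 and 7.31 in WT con, and 7.12, 7.51, 7.23, 7.06 and 7.29 in WT stress. In KO con they read 7.33, 7.35, 7.44, 7.002 and 7.28, and in KO stress 7.34, 7.001, 7.19, 6.82 and 6.91. All groups overlapped, with the WT mean higher after stress by 0.14 (SE 0.12) and the KO mean lower by 0.23 (difference -0.23, SE 0.12). The interaction was -0.37 (SE 0.17, limma unadjusted p = 0.0385, adjusted p = 1.00).

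**Figure D2:**
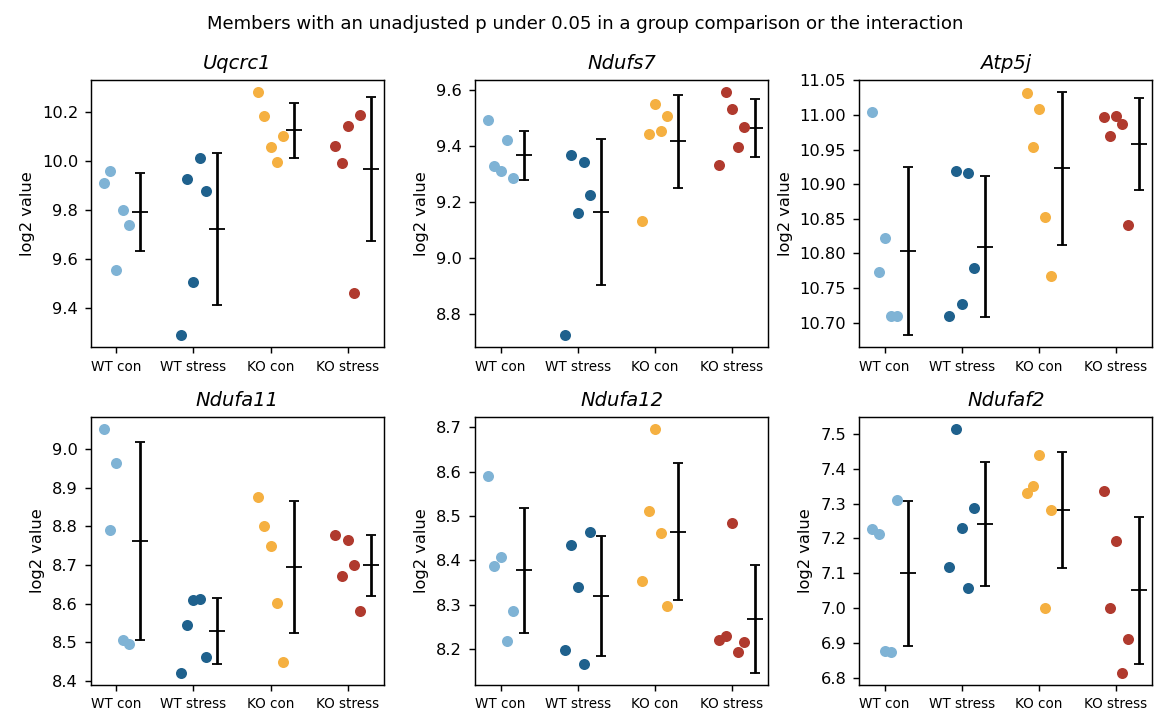
Log2 values (y axis) of 6 members in the 4 groups of 5 arrays (x axis), with points as single arrays and bars as mean ± SD. Uqcrc1 is the member whose KO con and WT con arrays do not overlap, and in the others the compared groups overlap.

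Complex II, succinate dehydrogenase, is the sole complex encoded wholly in the nucleus and is also an enzyme of the citric acid cycle. All 4 subunits were higher in KO in both genotype comparisons, by 0.02 to 0.18 between the controls and by 0.00 to 0.13 between the stressed groups, where it was 2 of 4 without WT stress replicate 1, and none had an unadjusted p under 0.05. Sdha, the flavoprotein that oxidizes succinate, ranged from 10.43 to 11.30 over the arrays and differed by -0.03 after stress in both genotypes. Sdhb, the iron-sulfur subunit, differed by -0.13 (SE 0.11) in WT and -0.17 (SE 0.11) in KO mice, the WT value being -0.02 without both arrays. The membrane anchors Sdhc and Sdhd differed by -0.00 and 0.05 in WT stress vs. con and by 0.00 and -0.11 in KO stress vs. con.

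Complex III held the member with complete separation of 2 groups. Uqcrc1, a core protein of the complex, read 9.91, 9.96, 9.56, 9.80 and 9.74 in WT con, and 10.28, 10.18, 10.06, 9.996 and 10.10 in KO con. Every KO con array lay above every WT con array, which held for 1 of 89 members and for 0.855% of all features. The difference in con KO vs. WT was 0.33 (SE 0.14, 95% interval 0.03 to 0.63, limma unadjusted p = 0.0314, adjusted p = 0.929). The exact permutation p of 0.00794 is the smallest that 5 against 5 arrays can give. It follows from the separation itself and adds nothing to it. In this comparison 3.57% of all features had an unadjusted p under 0.05, and 0.0% passed adjustment.
After stress the Uqcrc1 arrays read 9.29, 9.93, 9.505, 10.01 and 9.88 in WT and 10.06, 9.99, 10.14, 9.46 and 10.19 in KO. KO stress replicate 4 lay among the lowest arrays, and the groups overlapped (difference 0.25, SE 0.14, exact permutation p = 0.198, and 0.14 without WT stress replicate 1). Uqcrc2, the other core protein, was higher in KO by 0.16 (SE 0.13) and 0.14 (SE 0.13) in the 2 genotype comparisons, the latter being 0.02 without WT stress replicate 1. Uqcrfs1, the Rieske iron-sulfur protein, differed by -0.07 and 0.04. Over the 8 genes of the complex, 5 were higher in con KO vs. WT and 6 in stress KO vs. WT, or 5 in the latter without WT stress replicate 1. Uqcrq, which sits near cytochrome b, was lower in WT stress than WT con by 0.23 (difference -0.23, SE 0.12, limma unadjusted p = 0.0723), or -0.14 without both arrays, and differed by 0.00 in KO mice.

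Complex IV, cytochrome c oxidase, has several subunits with alternative isoforms. In WT stress vs. con 11 of 17 members were lower (median -0.06), and in KO stress vs. con also 11 of 17 (median -0.07). The WT direction turned without both arrays that stood apart, with 11 of 17 higher in WT stress (median 0.03) and 51.3% of all features. Cox5a, which binds the Cox4 subunit, had the lowest difference of all members in WT mice, at -0.32 (SE 0.15, limma unadjusted p = 0.0544). Its arrays read 9.49, 9.21, 9.36, 9.24 and 8.79 in WT con, and 8.38, 9.26, 9.10, 8.78 and 8.98 in WT stress. The groups overlapped, with WT stress replicate 1 the lowest, and the difference was -0.19 without that array and -0.12 without both arrays that stood apart. Cox4i1, the ubiquitous form of subunit 4, differed by -0.13 (SE 0.12) in WT and -0.16 (SE 0.12) in KO mice, and Cox5b by -0.08 and -0.07.
The isoforms known mainly from other tissues are Cox6a2, Cox7a1 and Cox8b of heart and skeletal muscle, Cox6b2, Cox7b2 and Cox8c of testis, Cox4i2 of lung, and the hypoxia-induced Ndufa4l2. Their means lay between 5.33 and 6.94, toward the lower end of the array's scale. After stress 7 of these 8 were higher in KO mice (median 0.06) and 5 of 8 in WT mice (median 0.01), with 8 of 81 and 15 of 81 of the other members and 48.5% and 62.8% of all features. No test of isoforms against other members was made, and the WT share of the isoforms is that of all features. Cox8b had the highest difference of all members in WT mice, at 0.29 (SE 0.14, limma unadjusted p = 0.0597), through 6.35 in WT stress replicate 4, with 5.33 to 5.94 in the other WT arrays. Cox6b2 was 7.28 in the same array and 5.92 to 6.84 in all others. The choroid plexus marker score was also highest in that array, at 2.72 (-0.76 to 0.09 in WT con, -0.97 to -0.33 in KO con, -0.97 to 2.72 in WT stress and -0.52 to 1.93 in KO stress, 11 of 12 listed markers measured). It was not the sole score to stand out there. The score of pallial excitatory neurons was likewise the highest of all arrays, at 1.10, with 0.95 in WT stress replicate 5. That of striatal and central amygdala neurons was low, at -0.98, with up to 0.80 in other arrays. The part of any of these tissues in the Cox8b and Cox6b2 values was not tested. The skeletal muscle marker score was -0.04 in WT stress replicate 4 and -0.14 to 0.16 over all arrays, with 9 of 9 markers measured. Its link to the Cox8b and Cox6b2 values was likewise not tested. Cox7b2 shared 1 value, 5.28, in 10 of the 20 arrays, so that its differences rest on few arrays.

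Complex V, the ATP synthase, was lower after stress for 16 of 17 genes in WT mice (median -0.08) and for 15 of 17 in KO mice (median -0.07). The WT direction turned without both arrays that stood apart, with 11 of 17 higher in WT stress (median 0.03) and 51.3% of all features. The catalytic subunits were close to even, with Atp5a1 (alpha) at -0.09 (SE 0.08) and -0.05 (SE 0.08), and Atp5b (beta) at -0.04 and -0.07. Atp5c1, the rotating gamma subunit, differed by -0.08 and -0.05. The genes Atp5g1, Atp5g2 and Atp5g3 encode the same c subunit of the membrane rotor, and differed by -0.03, -0.05 and -0.11 in WT mice and by -0.08, -0.05 and -0.08 in KO mice.
Atp5j, coupling factor 6 of the outer stalk, had an unadjusted p under 0.05 between the stressed groups. It read 10.71, 10.92, 10.73, 10.92 and 10.78 in WT stress, and 10.997, 10.97, 10.999, 10.99 and 10.84 in KO stress. In KO stress 4 of 5 arrays lay above all WT stress arrays. The difference was 0.15 (SE 0.07, limma unadjusted p = 0.0398, adjusted p = 0.53, exact permutation p = 0.0397), in a comparison where 9.28% of all features had an unadjusted p under 0.05 and 0.00348% an adjusted one. Without WT stress replicate 1 it was 0.12 with an unadjusted p of 0.0908. Ndufs7 and Atp5j were thus 2 of 89 members in a comparison with a background above that share. Atp5d, the delta subunit of the central stalk, was higher in KO by 0.27 (SE 0.17) between the controls and by 0.30 (SE 0.17) between the stressed groups, or 0.16 without WT stress replicate 1.

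Averaged over both conditions, KO minus WT, 7 of 89 members had an unadjusted p under 0.05, with 12% of all features and 0.00348% after adjustment. The members higher in KO were Uqcrc1 by 0.29 (SE 0.10), Atp5d by 0.29 (SE 0.12), Ndufs7 by 0.17 (SE 0.07), Ndufab1 by 0.17 (SE 0.07), Ndufaf3 of complex I assembly by 0.14 (SE 0.06) and Atp5j by 0.13 (SE 0.05). The testis isoform Cox7b2 was lower (difference -0.10, SE 0.04). The smallest adjusted p of a member was 0.412 with limma. Averaged over both genotypes, stress minus con, 0 of 89 had an unadjusted p under 0.05, with 1.67% of all features and 0.0% after adjustment. At the study's criterion the shares of all features were 0.24% in WT stress vs. con, 0.139% in KO stress vs. con, 0.0487% in con KO vs. WT and 0.768% in stress KO vs. WT, each with 0 of 89 members.

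Genes that work with the chain were taken from lists by function. Of 37 measured electron carriers and assembly factors outside the rule, 9 had higher values in KO than WT averaged over conditions at an unadjusted p under 0.05 (24.3%, against 12% of all features) and 0 lower. They were led by Tmem126b of complex I assembly (0.32, SE 0.11), Surf1 of complex IV assembly (0.22, SE 0.08) and Taco1, which activates translation of a mitochondrial complex IV subunit (0.28, SE 0.09). The score of this list was lowest of all arrays in WT stress replicate 1 (-0.27) and lowest of WT con in replicate 1 (-0.10). These are the arrays that stood apart, and the count of this list without them was not taken. Of 16 citric acid cycle genes 1 was higher, Suclg2 of succinyl-CoA ligase (0.35, SE 0.14), and of 13 glycolytic genes 0 had such a p.
Among 17 carriers and membrane proteins 2 were higher, Chchd3 of the cristae junctions (0.29, SE 0.10) and the import receptor Tomm20 (0.23, SE 0.09). Of 8 antioxidant enzymes 3 were higher, led by Prdx3 (0.36, SE 0.13) and Glrx2 (0.13, SE 0.05), and Sod1 was lower (-0.22, SE 0.08). Of 15 regulators of mitochondrial biogenesis 1 was lower, Polg, the polymerase of mitochondrial DNA (-0.18, SE 0.07). The subunits encoded in mitochondrial DNA were represented by mt-Nd3 and mt-Co2 alone, 2 of 13 listed. Of these mt-Co2 was lower in KO (-0.15, SE 0.06). The score of this pair was highest of all arrays in WT stress replicate 1 (0.34), where that of the nuclear subunits was lowest (-0.26). The mt-Co2 difference without that array was not taken. None of the genes in these lists had an adjusted p under 0.05 with limma.

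The mean level of the chain's subunits, with each gene counted equally, spread more among arrays of a group than between the group means. For each array the score of the 74 subunits without the restricted isoforms and assembly factors was taken, the mean log2 value after centring each gene on its mean over the arrays. It ran from -0.26 in WT stress replicate 1 to 0.25 in WT con replicate 1, and the group means were 0.01 ± 0.15 (SD, n = 5) in WT con, 0.08 ± 0.10 in KO con, -0.07 ± 0.14 in WT stress and -0.02 ± 0.14 in KO stress. The KO con arrays lay from -0.01 to 0.23 and the WT stress arrays from -0.26 to 0.05, while WT con (-0.14 to 0.25) and KO stress (-0.20 to 0.13) spread to both sides. In KO con replicate 3, 84 of 89 members (94.4%) lay above their own mean, with 44.9% of all features, and in KO stress replicate 4 only 13 of 89 (14.6%), with 51.9% of all features. In WT con replicate 1 it was 72 of 89 (35.0% of all features) and in WT stress replicate 1 18 of 89 (57.0%).
The complexes shared this pattern. In WT stress replicate 1 complexes I, II, III and V scored -0.29, -0.22, -0.27 and -0.18, and complex IV without the restricted isoforms -0.26. In KO con replicate 3 the same scores were 0.24, 0.18, 0.26, 0.20 and 0.26, and in KO stress replicate 4 they were -0.19, -0.24, -0.26, -0.22 and -0.16. The assembly factors departed from them in WT con replicate 1, at -0.23, where every complex lay at 0.22 or higher.

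**Figure D3:**
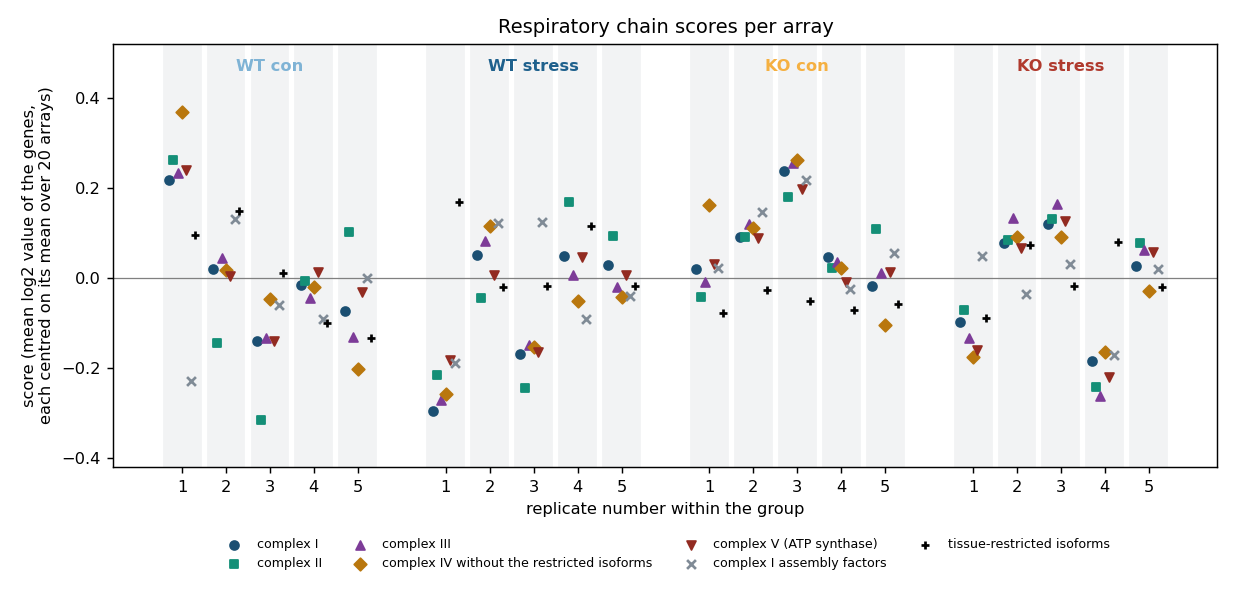
Score of each complex (y axis, mean log2 value of its genes after centring each on its mean over 20 arrays) in every array (x axis, replicate number within the 4 groups). The symbols of complexes I to V lie close together within most arrays, between -0.32 and 0.37, while assembly factors and restricted isoforms depart from them in several arrays.

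Array medians differed as well, from 6.59 in WT con replicate 1 to 6.82 in WT stress replicate 1, which are the arrays with the highest and the lowest score of the 74 subunits, and the part of array scaling in the scores was not tested. Other sets also varied. In WT stress replicate 1 the citric acid cycle score was -0.55, the astrocyte marker score -0.71 (-0.17 to 0.17 in WT con, -0.18 to 0.17 in KO con, -0.71 to 0.22 in WT stress and -0.00 to 0.34 in KO stress, 9 of 9 markers measured) and all features with a mean of at least 8 lay at -0.25. The mitochondrially encoded pair was highest in that array, at 0.34. In WT con replicate 1 the features with a mean of at least 8 lay at -0.19, opposite to the chain. In KO con replicate 3 they were the highest of all arrays, at 0.10. The electron carriers and assembly factors outside the rule (0.19) and the mitochondrial antioxidant enzymes (0.12) were also highest in that array.

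Taken pair by pair, the deviations of the 74 subunits from their group means had a median Pearson r of 0.42 over the 20 arrays, with 86.7% of the pairs above 0. Over all features with 1 symbol the median was 0.01 and 51.3% were above 0. The points of each r share the array, its RNA and its scaling, so that r is given as a description. It was 0.44 after quantile normalization, 0.58 after centring on array medians (all features 0.05), and 0.36 over 18 arrays without the 2 that stood apart. Within a complex and against the subunits of other complexes the medians were alike in size, at 0.38 and 0.42 for complex I, 0.51 and 0.48 for complex II, 0.45 and 0.45 for complex III, 0.46 and 0.45 for complex IV, and 0.36 and 0.41 for complex V.
Against the mean of the other subunits, 73 of 74 subunits had an r above 0 and 55 above 0.5 (median 0.65). The gene most like that mean was Uqcrb of complex III (0.90), followed by Ndufb6 of complex I (0.89), Ndufa4 (0.89), Sdhb (0.87) and Ndufa2 (0.87). Uqcrb read 10.63 in WT con replicate 1 and 9.93 in WT con replicate 3, a wider span than between any of its group means. Among the catalytic subunits r ranged widely, from 0.18 for Ndufs1 and 0.28 for Sdha to 0.69 for Ndufs7 and 0.73 for Ndufs8. Accessory subunits were also among the lowest, with Atp5l at 0.09 and Ndufv3 at 0.13, and Ndufb10 alone was below 0 (-0.10).
The assembly factors had a median r of 0.15, from 0.67 for Ndufaf3 to -0.33 for Ndufaf7. The 8 restricted isoforms had a median of 0.02, none above 0.5, from 0.43 for Cox6b2 to -0.42 for Cox8c. Between ubiquitous and restricted forms of a subunit, Cox4i1 followed the chain at 0.83 and Cox4i2 at -0.29, Cox6b1 at 0.81 and Cox6b2 at 0.43, Cox7a2 at 0.80 and Cox7a1 at 0.31, and Cox8a at 0.66 and Cox8b at 0.14. For Cox6a1 and Cox6a2 the values were 0.16 and -0.03. Pairs of a restricted isoform and a subunit had a median of 0.02 as deposited, 0.20 after quantile normalization and 0.20 after median centring.

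**Figure D4:**
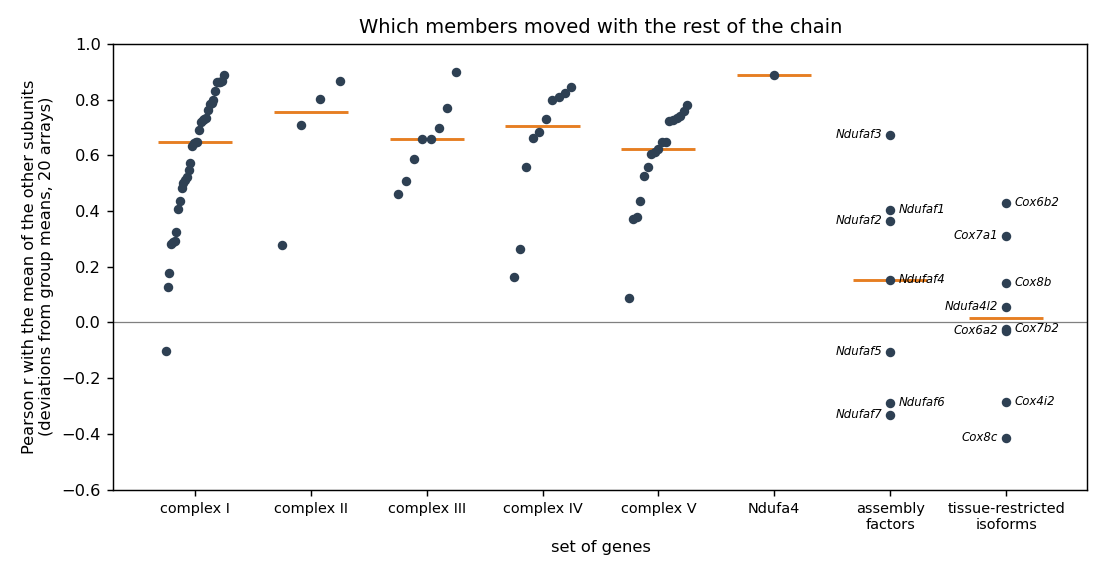
Pearson r (y axis) of each member with the mean of the other subunits, from deviations from group means over 20 arrays, by set of genes (x axis). Points are genes and orange bars medians. Subunits of the complexes reach up to 0.90 with 1 value below 0, while assembly factors and restricted isoforms spread around lower values.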

How the data were processed

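Mouse Gene 1.0 ST arrays measured amygdala RNA of 20 mice, 1 mouse per array. The authors ran ExonRMA (ArrayAssist) on the probe signals, applied variance stabilization and deposited log2 values for 28767 features, ranging from 4.09 to 14.24, whose annotation and build are not given in the sources used here. Groups were taken from the sample labels. Symbols came from the platform's probe table (21776 features with 1 symbol, 1618 with several, 5373 without), and promoters from RefSeq (GRCm38.p6).

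Deposited values were tested unscaled with limma 3.58.1 under R 4.3.3 (1 mean per group in lmFit, then eBayes, 16 residual and 2.10 prior degrees of freedom), with Benjamini-Hochberg adjustment and a threshold of 0.05. Single genes also had an exact two-sided permutation test, and scripts were tested on simulated data. The members and all gene lists were chosen with earlier results of these data known. Members named in the text are fixed catalytic subunits and isoforms, those with the smallest p under 0.05 in each contrast and those with the largest or smallest differences; the genes quoted for their r with the chain, and Ndufa9 among the promoters, were chosen after their values were seen. Precision is limited by how many arrays there are.

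Arrays are numbered 1 to 5 in each group. Deviations of same-numbered arrays from their group means correlated at 0.162 to 0.420 in WT con and WT stress, over 0.1 in 5 of 5 pairs, and 5 of 5 was reached for no other groups. The number was therefore read as a possible pairing in WT mice alone. The main fit held no block, so its WT differences are unpaired. Blocks by number were fitted only as alternatives, in all groups together and in each group comparison, those of KO mice included. Alternatives were the methods' t-test, quantile normalization, centring on array medians, a mean log2 of at least 5, array weights, replicate blocks, the mean of all features of a gene, leaving out the assembly factors, and leaving out each array, and leaving out both arrays that stand apart was added after seeing the data. Figures were drawn with matplotlib 3.10.9.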

Additional observations from a re-analysis of the deposited data

Results flagged for a closer look

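Of 88 sets of 5 arrays examined, 8 held an array far from the other 4 by Dixon's test, a test that flags about 1 in 20 such sets by chance. In WT stress replicate 1, an array that stood apart as a whole, Ndufab1 read 8.31 (8.77 to 8.93 in the others of its group) and the testis isoform Cox8c 6.62 (5.72 to 5.89). In WT con replicate 1 Cox8c read 6.17 (5.84 to 5.86). Uqcrc1 read 9.46 in KO stress replicate 4 (9.99 to 10.19), the array with the fewest members above their own mean. Ndufa12 read 8.48 in KO stress replicate 3 (8.19 to 8.23), Ndufs7 9.13 in KO con replicate 1 (9.44 to 9.55) and Atp5j 10.84 in KO stress replicate 5 (10.97 or higher). Cox7b2 read 5.39 in KO con replicate 3, while the other 4 arrays shared the value 5.28.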

How the results depend on the processing

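Under no alternative did a member reach an adjusted p under 0.05 or the study's criterion, the smallest adjusted p being 0.225. The counts of members with an unadjusted p under 0.05 (as reported 1 in WT stress vs. con, 1 in KO stress vs. con, 1 in con KO vs. WT, 2 in stress KO vs. WT, 1 for the interaction, 0 for stress and 7 for genotype averaged) were small and moved, and the cause was not tested. Shares of all features under the same setting stand in brackets. With quantile normalization they were 3 (3.76%), 0 (1.23%), 0 (3.06%) and 3 (9.26%) in the 4 group comparisons, 1 (1.64%) for stress averaged and 3 (9.87%) for genotype averaged. With median centring they were 2 (2.58%) in WT and 2 (1.24%) in KO stress vs. con, 1 (8.94%) in stress KO vs. WT and 1 (1.41%) for stress averaged. With array weights they were 0 (3.94%) in WT stress vs. con, 5 (9.78%) in con KO vs. WT and 1 (6.09%) in stress KO vs. WT. The methods' t-test gave 0 (2.18%) in KO stress vs. con and 4 (4.71%) in stress KO vs. WT, the filter at a mean of 5 gave 1 (9.05%) in stress KO vs. WT, the mean of all features of a gene gave 0 (3.55%) in WT stress vs. con, and leaving out the assembly factors gave 0 for the interaction. With the replicate block in all groups they were 4 (4.45%) in WT stress vs. con, 2 (1.79%) in KO stress vs. con, 2 (5.26%) in con KO vs. WT and 2 (2.11%) for stress averaged, and with the replicate block in the 2 groups alone 0 (3.59%), 11 (4.44%) and 5 (9.11%) in the first 3. Without both arrays that stood apart, chosen after seeing the data, they were 0 (5.01%) in WT stress vs. con, 6 (7.62%) in con KO vs. WT and 1 (5.09%) in stress KO vs. WT. Leaving out each array gave 0 to 5, 0 to 2, 0 to 7 and 1 to 6 in the 4 group comparisons, 0 to 2 for the interaction, 0 to 4 for stress averaged and 5 to 11 for genotype averaged. The 13 member differences with an unadjusted p under 0.05 kept their sign in every alternative. Ndufs7 in stress KO vs. WT kept that p in 30 of 30 and Uqcrc1 averaged over conditions in 28 of 28, while it was lost in 13 alternatives for Atp5j in stress KO vs. WT, 12 for Ndufaf2, 10 for Ndufa11, 9 for Ndufa12 and 5 for Uqcrc1 in con KO vs. WT, and, averaged over conditions, in 10 for Cox7b2, 6 for Atp5d, 5 for Ndufab1, 3 for Ndufs7, 1 for Atp5j and 1 for Ndufaf3. Cox7b2, Cox7a1 and Cox8c, of low signal, shared 1 value in 10, 7 and 6 arrays.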
